A study of Homo sapiens with 6 samples.

Results

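Ribosomal protein genes code for the proteins that, with the ribosomal RNAs, build the small and the large subunit of the cytosolic ribosome. The genes described here were taken by their symbols: RPL or RPS followed by a number and at most 1 of the letters A, X or L, the stalk genes RPLP0, RPLP1 and RPLP2, and RPSA. The rule found 80 genes among the 15998 that were listed for all libraries, of which 31 belong to the small subunit, 46 to the large subunit and 3 (RPS27L, RPL39L and RPL3L) are paralogs of core members. It does not reach some ribosome components, among them FAU, RPL36AL and RACK1, which are given beside the members below.

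Total RNA was sequenced after removal of ribosomal RNA from 6 human lung adenocarcinoma lines, with 1 library for each line. The derived lines were PC-9GR and PC-9ER, set against their parent PC-9, and HCC827GR and HCC827ER, set against their parent HCC827. The series concerns resistance to EGFR tyrosine kinase inhibitors, and PC-9 and HCC827 are known for activating EGFR mutations. The labels do not spell out GR or ER, do not name the agent or its dose, do not say whether a line is 1 clone, and give the same serum-containing RPMI-1640 medium for all 6 lines. The label of HCC827GR reads HCC82GR.

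Ribosomal protein mRNAs are among the most abundant and shortest mRNAs of a cell. Most begin with a C and a run of pyrimidines, the terminal oligopyrimidine (TOP) motif, through which mTORC1 and the RNA-binding protein LARP1 control their translation and stability together. Several ribosomal proteins also act outside the ribosome: RPL5 and RPL11 bind MDM2 together with 5S ribosomal RNA and so stabilise p53 when ribosome assembly is disturbed, and RPS27L is a p53 target gene.

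Promoter windows were found for 63 of the 80 genes in the RefSeq table (GRCh38.p14). An annotated start with C and at least 4 more pyrimidines stood in 46 of these 63 genes (73.0%), against 847 of 12688 other listed genes (6.68%). The windows below hold 30 bases before and 15 bases from the annotated start, and capitals mark the pyrimidine run at that start as far as the window shows it. They were chosen to show members described below, and RPS27L and RPS4X are the ones whose annotated start has no such run. They lie at chr1:153990732-153990776 on the plus strand (RPS27), chr4:108620546-108620590 on the plus strand (RPL34), chr19:39435935-39435979 on the minus strand (RPS16), chr12:120201097-120201141 on the minus strand (RPLP0), chr9:19380222-19380266 on the minus strand (RPS6), chrX:119791616-119791660 on the minus strand (RPL39), chr15:63157463-63157507 on the minus strand (RPS27L) and chrX:72277234-72277278 on the minus strand (RPS4X).
RPS27: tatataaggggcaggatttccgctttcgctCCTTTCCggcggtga
RPL34: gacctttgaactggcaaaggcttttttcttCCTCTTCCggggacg
RPS16: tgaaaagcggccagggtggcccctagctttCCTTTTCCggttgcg
RPLP0: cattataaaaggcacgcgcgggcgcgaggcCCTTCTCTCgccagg
RPS6: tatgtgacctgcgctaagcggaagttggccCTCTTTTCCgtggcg
RPL39: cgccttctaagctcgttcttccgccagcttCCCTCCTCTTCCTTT
RPS27L: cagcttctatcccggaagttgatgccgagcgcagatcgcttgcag
RPS4X: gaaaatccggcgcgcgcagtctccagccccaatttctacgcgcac

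In the whole windows of 250 bases before and 50 after the start, the letters CCGGAA, a core bound by ETS factors, stood on either strand in 41 of 78 starts of ribosomal protein genes (52.6%), against 4379 of all 18485 starts (23.7%). A match is a description of the sequence only.

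Expression is given in CPM, counts per 1000000 counts of the library over the 15998 genes. Library totals lay between 14529321 (HCC827) and 17832603 (labelled PC-9GR), with 14471 to 14921 genes detected. Across genes, PC-9ER, HCC827GR and HCC827ER had Spearman correlations of 0.970, 0.954 and 0.919 with their parents. The library labelled PC-9GR had 0.825 with PC-9, so the counts over all derived lines are also given without that library. The identity of that line was not tested here, and every ratio of PC-9GR over PC-9 rests on its label. EPCAM, an epithelial adhesion molecule, was at 1.91 CPM in PC-9GR and 406 in PC-9ER, against 384 in PC-9, and at 28.98 in HCC827GR and 107 in HCC827ER, against 460 in HCC827. Of the 9 epithelial markers, 6 to 8 reached 1 CPM in each library. Of those at 1 CPM in a pair, 8 of 8 were below the parent in HCC827GR (median log2 ratio -2.41) and in HCC827ER (-1.997), 5 of 7 in PC-9GR (-2.52) and 6 of 8 in PC-9ER (-0.61). NKX2-1, the lung lineage factor, was at 0 in the libraries labelled PC-9GR and HCC827ER. It had only 0.77 CPM in PC-9 and 1.16 in PC-9ER, but 15.2 in HCC827 and 2.74 in HCC827GR. The summed level of 4 listed leukocyte markers was 21.98 to 127 CPM in derived and 25.8 to 56.9 CPM in parental lines, with CD3E at 0 in 5 of 6 libraries, that of 4 fibroblast markers 2.49 to 41.2 and 7.16 to 22.8 CPM, with DCN at 0 in all derived lines, and that of 4 endothelial markers 0.112 to 55.7 and 0.895 to 220.04 CPM, with KDR at 0 in 5 of 6. Other markers of these lists were detected. CD68 had 21.7 to 127 CPM over the 6 libraries, and COL1A1 22.5 to 41.0 CPM in the PC-9 lines and 2.49 to 6.95 in the HCC827 lines. CDH5 and PECAM1 had 151 and 68.7 CPM in PC-9, 32.8 and 22.7 in PC-9ER, and 0.112 and 0 in PC-9GR. Both were below 1 CPM in the HCC827 lines. The part of all these markers in the values below was not tested.

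Ribosomal protein genes took a larger share of the counts in both PC-9 derivatives and in HCC827ER than in the parent, and a smaller share in HCC827GR. The share was 7.61% of counts in PC-9GR and 7.38% in PC-9ER, against 5.81% in PC-9. In the HCC827 lines it was 7.62% in HCC827GR and 16.1% in HCC827ER, against 8.47% in HCC827. HCC827ER thus stood above every other library, with 1.90 times the share of its parent, whereas the other derived lines had 1.31 (PC-9GR), 1.27 (PC-9ER) and 0.900 times (HCC827GR). The exact 95% binomial interval of the share was 16.05% to 16.09% in HCC827ER and as narrow in the others, but it covers counting error only, and no line has a second library. Both ER libraries came in a second deposited table, and their parents in the first. In the ER pairs, a difference between the tables and one between the lines therefore cannot be told apart. In bulk RNA, a larger share of these mRNAs and a loss of other RNA per cell cannot be told apart.

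**Figure D1:**
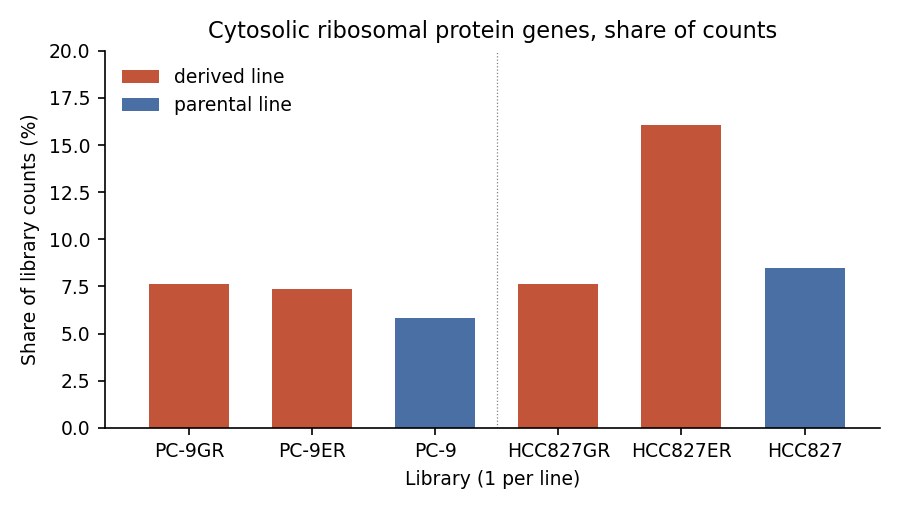
Share of all counts taken by the 80 ribosomal protein genes (y axis, %) in each of 6 libraries (x axis), 1 library per line, so that bars have no error bar between replicates. HCC827ER stands at 16.1%, and the other 5 libraries lie between 5.81% and 8.47%.

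Within the ribosomal protein counts, the small subunit held 37.9% in PC-9GR and 38.1% in PC-9ER, against 37.4% in PC-9. It held 31.9% in HCC827GR and 35.0% in HCC827ER, against 34.8% in HCC827. Per length of transcript, RPS2 was the most abundant core member in 5 libraries, at 3749 CPM per kilobase in PC-9GR, 5285 in PC-9ER and 4529 in PC-9, and at 10292 in HCC827ER and 4917 in HCC827. In HCC827GR the first was RPL23, at 7573 CPM per kilobase, with RPS2 at 3920. RPS29 was the lowest core member per length in every library except HCC827ER, where RPL22 was lowest at 471 CPM per kilobase. Ribosomal protein genes have many processed pseudogenes, and 13 of the 80 genes had a count that was not whole in at least 1 library, so levels of single genes are uncertain where the counting split reads.

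Gene by gene, the shift was broad in HCC827ER, and the members of PC-9ER lay close together around a smaller one. A log2 ratio of CPM, derived over parental line and with a prior count of 2, was taken in each pair for the 79 members with at least 1 CPM. RPL3L, with 0 to 5 counts per library, stayed below. The median over members was 0.38 in PC-9GR with -0.02 over all genes, 0.37 in PC-9ER with 0.03, -0.11 in HCC827GR with 0.06, and 0.97 in HCC827ER with -0.35. Of the 79 members, 56 stood above the parent in PC-9GR and 77 in PC-9ER, while 15 did so in HCC827GR and 77 in HCC827ER. The same counts over all genes are not given here, so only the medians over all genes stand beside them. The spread among members (SD of the log2 ratio) was widest in PC-9GR at 0.74 and smallest in PC-9ER at 0.22, with 0.36 in HCC827GR and 0.45 in HCC827ER.

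Single pairs have no test, so members were counted by size. In HCC827ER, 37 of 79 (46.8%) were at least 2-fold higher than in HCC827, against a background of 11.3% of 12597 genes, and 65 (82.3%) were at least 1.5-fold higher, against 19.3%. None was at least 2-fold or 1.5-fold lower there, where 28.3% and 41.8% of all genes were. In PC-9GR, 13 members (16.5%) were at least 2-fold higher, against 21.0% of 13019 genes, and none was 2-fold lower, against 20.9%. At 1.5-fold the counts in PC-9GR were 25 higher (31.6%, background 30.0%) and 6 lower (7.59%, background 31.0%). The higher counts in PC-9GR were thus at or below the background, and only the lower ones stood far under it.

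PC-9ER had 1 member at least 2-fold higher, RPL38, against 5.49% of 12288 genes, and none 2-fold lower, against 7.61%. At 1.5-fold it had 10 higher (12.7%, background 15.4%) and none lower (background 16.2%). HCC827GR had 1 member at least 2-fold higher, RPL23, against 8.15% of 12595 genes, and 1 lower, RPS4X, against 8.77%. At 1.5-fold it had 2 higher (2.53%, background 16.6%) and 9 lower (11.4%, background 15.0%). TMM scaling moved every log2 ratio of HCC827ER up by 0.35 and those of the other pairs by -0.05 to 0.05. The members' median in HCC827ER was then 1.32, against 0.00 over all genes, and 65 members (82.3%) were at least 2-fold higher, against 17.6% of all genes under the same scaling.

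**Figure D2:**
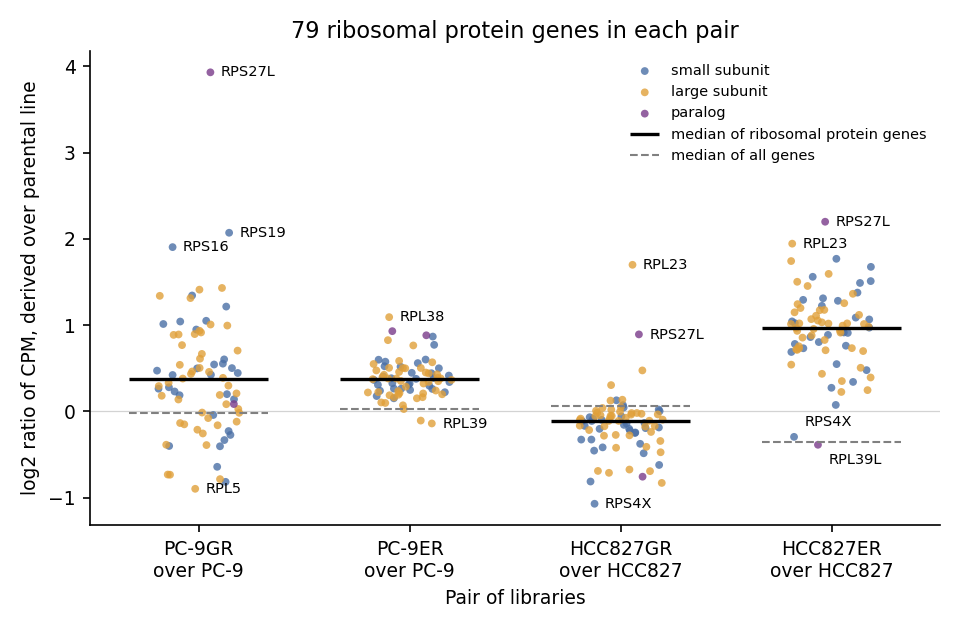
Log2 ratio of CPM of each of 79 ribosomal protein genes (points, coloured by subunit) in each derived line over its parent (x axis), 1 library per line. Solid bars are the members' medians and dashed bars the medians of all genes. HCC827ER points centre on 0.97 and PC-9ER points lie close together around 0.37, while RPS27L stands apart at 3.93 in PC-9GR and RPL23 at 1.70 in HCC827GR.

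The 4 pairs did not move the same genes one way. Of 79 members, 10 were higher in every pair (12.7%), among them RPL9, RPL11, RPL14, RPL23, RPL23A, RPL26, RPS6, RPS15A and RPS27L, against 9.88% of all 11431 genes with at least 1 CPM in every pair. None was lower in every pair. Under TMM scaling 7 members (8.86%) were higher in every pair, against 11.9% of all genes. RPL11 and RPS15A then stood just below HCC827 in HCC827GR, at -0.03 and -0.04. Over the 4 pairs the share was thus close to that of all genes. Over the 3 pairs without HCC827GR it was not: 53 members (67.1%) were higher in each of them, against 15.0% of all genes. Without the library labelled PC-9GR the count was 14 (17.7%, background 15.0%), without PC-9ER 11 (13.9%, background 13.1%) and without HCC827ER 10 (12.7%, background 17.9%). Pairs of 1 parent share its library.

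The members are short, and short mRNAs outside the family moved in the same direction. The median transcript length in GENCODE 29 was 757 bases over the members and 2478 bases over 15656 genes, and 61 of 80 members measured at most 1000 bases. Among other genes with at least 10 CPM, the median log2 ratio in HCC827ER was 0.56 up to 700 bases and -1.11 over 5000 bases. In PC-9GR the corresponding values were 0.52 and -0.37, in PC-9ER 0.44 and -0.42, and in HCC827GR -0.10 and 0.18. Members up to 700 bases had medians of 0.46 in PC-9GR and 0.44 in PC-9ER, which lie close to those of other short genes, and -0.20 in HCC827GR. In HCC827ER they had 0.99.

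Among genes of at most 1000 bases with at least 100 CPM, the median in HCC827ER was 0.99 over 59 members and 0.58 over 304 other genes, and 29 members (49.2%) and 83 others (27.3%) were at least 2-fold higher. In PC-9GR the medians were 0.31 over members and 0.47 over others, in PC-9ER 0.38 and 0.50, and in HCC827GR -0.14 and -0.08. A gene could pass this minimum through the higher library of a pair alone, so the same medians were also taken with the minimum on the mean of the 6 libraries, for 59 members and 221 others. The members' median was then 0.99 in HCC827ER, with 0.43 for the others. The same medians were 0.30 and 0.29 in PC-9GR. PC-9ER had 0.38 over members and 0.47 over others, and HCC827GR had -0.14 over members and -0.06 over others. With either minimum the members' median lay above that of the others in HCC827ER by more than in any other pair. The part of transcript length in the shift was not tested.

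**Figure D3:**
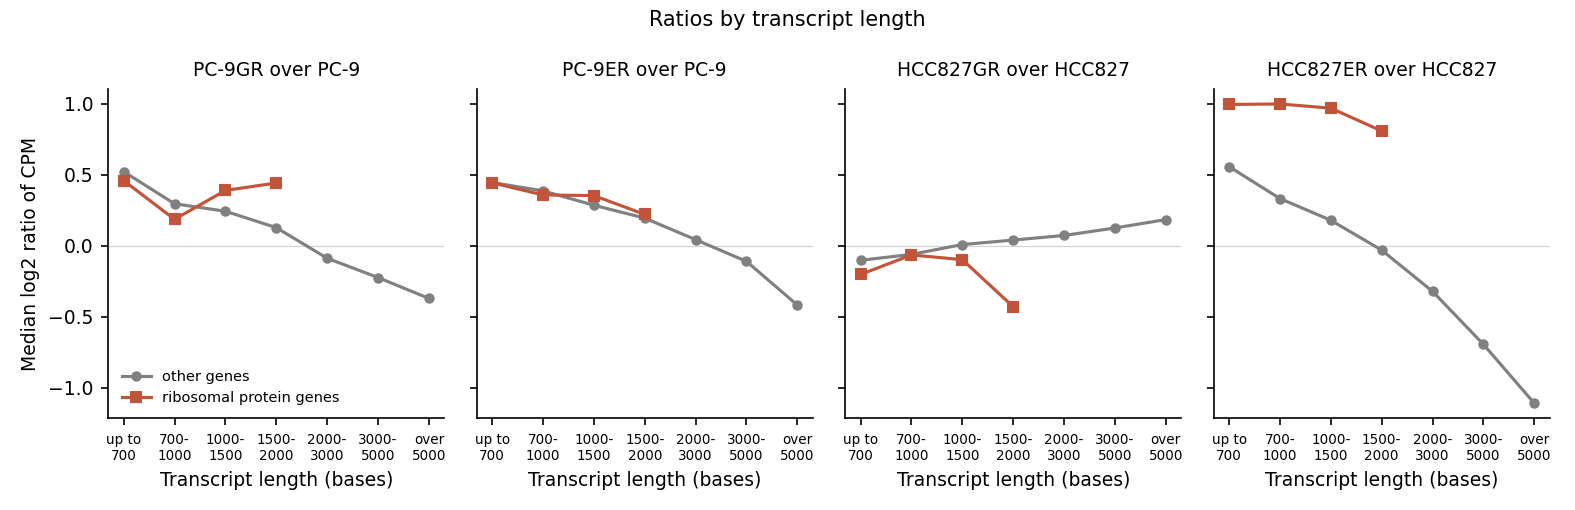
Median log2 ratio of CPM (y axis) by transcript length in bases (x axis) in each derived line over its parent, for ribosomal protein genes (squares, length classes with at least 4 of them) and all other genes with at least 10 CPM (circles). Squares lie on the circles in PC-9ER at 0.44 and 0.44 in the shortest class, and above them in HCC827ER at 0.99 and 0.56.

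The stalk proteins RPLP0, RPLP1 and RPLP2 form the flexible arm that recruits translation factors. RPLP0 had 3383 CPM in PC-9GR and 1999 in PC-9ER, against 1697 in PC-9, and 3091 in HCC827GR and 5720 in HCC827ER, against 3490 in HCC827. RPLP1 had 1295 CPM in PC-9GR and 688 in PC-9ER, against 487 in PC-9, and 463 in HCC827GR and 1471 in HCC827ER, against 738 in HCC827. All 3 were higher in both PC-9 derivatives and in HCC827ER and lower in HCC827GR, where RPLP1 had a log2 ratio of -0.67, RPLP2 -0.24 and RPLP0 -0.18. RPLP2 had the smallest ratio of the 3 in HCC827ER, at 0.23, with 845 CPM, against 723 CPM in HCC827.

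RPL5 and RPL11, partners in the 5S particle, differed from each other in PC-9GR. RPL5 had 629 CPM in PC-9GR and 1662 in PC-9ER, against 1172 in PC-9, and 1397 in HCC827GR and 2893 in HCC827ER, against 1479 in HCC827. RPL11 had 686 CPM in PC-9GR and 711 in PC-9ER, against 545 in PC-9, and 1057 in HCC827GR and 1519 in HCC827ER, against 1043 in HCC827. RPL5 was thus the lowest member in PC-9GR, at a log2 ratio of -0.90, while RPL11 was at 0.33. Next to RPL5 at the low end of PC-9GR stood RPS12 (-0.82), a small-subunit protein.

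RPS19 and RPS16, both proteins of the head of the small subunit, led the core members of PC-9GR. RPS19, mutated in Diamond-Blackfan anaemia, had 1759 CPM in PC-9GR and 617 in PC-9ER, against 419 in PC-9, and 474 in HCC827GR and 1043 in HCC827ER, against 553 in HCC827. RPS16 had 1538 CPM in PC-9GR and 750 in PC-9ER, against 411 in PC-9, and 587 in HCC827GR and 1054 in HCC827ER, against 654 in HCC827. Both were highest by far in PC-9GR, with log2 ratios of 2.07 and 1.90, and both were slightly lower than the parent in HCC827GR, at -0.22 and -0.16.

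RPS6, the substrate of the S6 kinases downstream of mTORC1, was among the members above the parent in every pair. It had 1631 CPM in PC-9GR and 1114 in PC-9ER, against 788 in PC-9, and 1099 in HCC827GR and 1469 in HCC827ER, against 1005 in HCC827. RPSA, which also serves as a laminin receptor, had 1964 CPM in PC-9GR and 1212 in PC-9ER, against 846 in PC-9, and 1327 in HCC827GR and 3094 in HCC827ER, against 1578 in HCC827. RPS14, the gene lost in the 5q- syndrome, had log2 ratios of 0.55 in PC-9GR, 0.15 in PC-9ER and 0.76 in HCC827ER, and of -0.20 in HCC827GR. RPL22, a tumour suppressor in T cell leukaemia, had 0.39, 0.35, -0.11 and 0.91 in the same order, close to the members' median in each pair.

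RPL41, the smallest ribosomal protein, had 1606 CPM in PC-9GR and 1278 in PC-9ER, against 852 in PC-9, and 1622 in HCC827GR and 3855 in HCC827ER, against 2172 in HCC827. RPL38, known in mouse for a role in translating a subset of homeobox mRNAs, had 382 CPM in PC-9GR and 302 in PC-9ER, against 142 in PC-9, and 255 in HCC827GR and 593 in HCC827ER, against 259 in HCC827. RPL38 was the highest member in PC-9ER, at 1.09, and stayed at its parent's level in HCC827GR, at -0.02. At the low end of PC-9ER stood RPL39 (-0.14), RPL31 (-0.11) and RPL3 (0.03), all large-subunit proteins. RPL3, which reaches close to the peptidyl transferase centre, was also near its parent in HCC827GR (-0.03) and higher in HCC827ER (1.18).

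RPL23, a large-subunit protein that also binds MDM2, was the outlying core member of the HCC827 derivatives. It had 4657 CPM in HCC827GR and 5520 in HCC827ER, against 1434 in HCC827, and 1106 in PC-9GR and 756 in PC-9ER, against 649 in PC-9. The log2 ratio was 1.70 in HCC827GR, where the members' median was -0.11, and 1.94 in HCC827ER. Listed genes next to it on chromosome 17 were higher in HCC827GR as well: MLLT6 had a log2 ratio of 3.33, CISD3 2.55, PCGF2 2.77, PSMB3 1.69, PIP4K2B 2.75, CWC25 2.44 and LASP1 1.24. On the far side of LASP1 the values were below 0, with CACNB1 at -0.86, RPL19 at -0.83 and FBXL20 at -0.59.

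RPL19 and RPL23 thus lay within 3 listed genes of each other and went opposite ways in HCC827GR. RPL19 had 1043 CPM in HCC827GR and 3080 in HCC827ER, against 1853 in HCC827, and 1689 in PC-9GR and 1454 in PC-9ER, against 1064 in PC-9. In HCC827ER the same neighbours were higher by less, with MLLT6 at 1.42, CISD3 at 1.63, PCGF2 at 1.61, PSMB3 at 0.92, PIP4K2B at 1.03 and LASP1 at 0.37, and CWC25 was at -0.21. The files hold no DNA copy number, so its part was not tested.

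**Figure D4:**
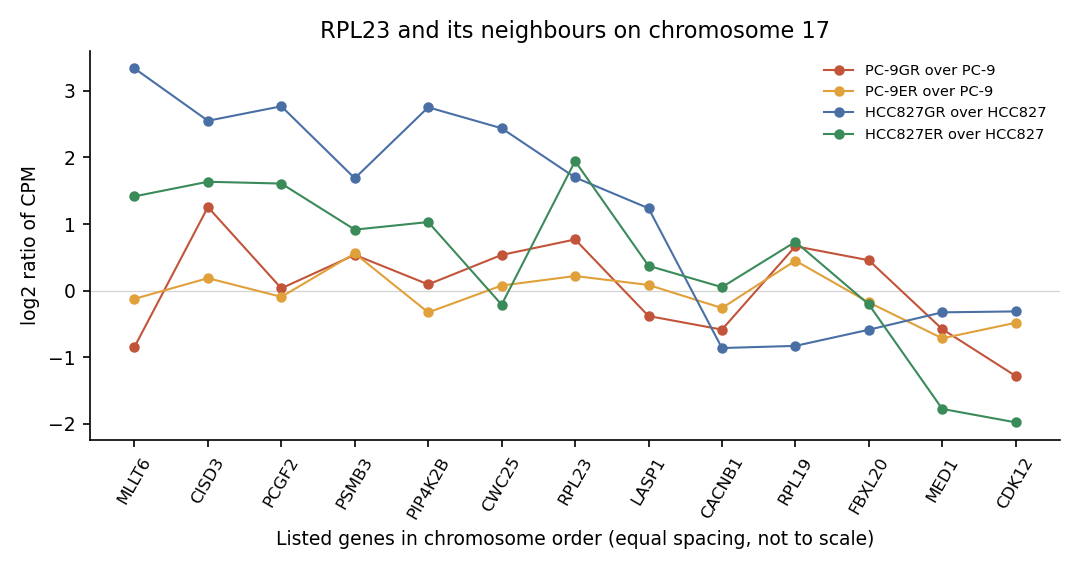
Log2 ratio of CPM (y axis) of RPL23 and the 6 listed genes on either side of it on chromosome 17, in chromosome order with equal spacing (x axis), in each derived line over its parent. In HCC827GR every gene from MLLT6 to LASP1 lies at 1.24 or above and every gene from CACNB1 onward lies below 0.

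All 4 X-linked members were below the parent in HCC827GR. RPS4X, the small-subunit protein with a Y-linked counterpart, had 1348 CPM in HCC827GR and 2307 in HCC827ER, against 2831 in HCC827, and 1438 in PC-9GR and 1219 in PC-9ER, against 1015 in PC-9. RPL10, mutated in T cell leukaemia, had 2169 CPM in HCC827GR and 4968 in HCC827ER, against 3499 in HCC827, and 2465 in PC-9GR and 1995 in PC-9ER, against 1739 in PC-9. The log2 ratios in HCC827GR were -1.07 for RPS4X, -0.69 for RPL10, -0.69 for RPL36A and -0.71 for RPL39, against a median of -0.11 over the 75 other members. Other X-linked genes with at least 10 CPM had a median of -0.21 in HCC827GR, with 202 of 312 (64.7%) below 0, against 0.08 over genes elsewhere. In HCC827ER the X-linked members had a median of 0.41, against 0.99 for the members elsewhere, and other X-linked genes -0.66, against -0.36 elsewhere. RPS4X was the only one of the 4 below its parent in HCC827ER, at -0.29, and it stood at 0.06 there under TMM scaling.

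RPS27A, made as a fusion with ubiquitin, was the third lowest member in HCC827GR. It had 462 CPM in HCC827GR and 981 in HCC827ER, against 811 in HCC827, and 647 in PC-9GR and 720 in PC-9ER, against 551 in PC-9. Chromosome 2, where it lies, had a median log2 ratio of -0.22 over 647 other genes in HCC827GR, with 462 (71.4%) below 0, against 0.10 over genes elsewhere, and its 4 members had a median of -0.52. In HCC827ER its other genes also stood lower, at -0.70 against -0.35 elsewhere. Its 4 members had 0.97 there, as did the members elsewhere. RPL21, a large-subunit protein, was among the 3 highest in HCC827GR, with 669 CPM, against 481 CPM in HCC827.

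RPL7, a large-subunit protein coded on chromosome 8, differed more between the 2 families of lines than between derived and parental ones. It had 4013 CPM in HCC827GR, 5949 in HCC827ER and 4662 in HCC827, whereas it had 1016 in PC-9GR, 617 in PC-9ER and 505 in PC-9. The libraries of the 2 families did not overlap. Its neighbour ELOC, an elongin subunit, had 414, 339 and 436 CPM in HCC827GR, HCC827ER and HCC827, and 64.9, 40.1 and 26.3 CPM in PC-9GR, PC-9ER and PC-9. Of the 12 nearest listed genes with at least 10 CPM in some library, 5 were higher in every HCC827 line than in every PC-9 line (ELOC, TMEM70, UBE2W, STAU2 and LY96), as were 24 of 79 members (30.4%), against 11.8% of 11269 genes. The genes directly beside RPL7 were not among them: RDH10 had 53.9 to 61.4 CPM in the HCC827 lines and 32.1 to 57.3 in the PC-9 lines, and TERF1 41.5 to 87.1 and 12.2 to 45.4. RPL7 was also higher in PC-9GR than in PC-9, at a log2 ratio of 1.01. Of its 12 neighbours, 11 were above PC-9 in PC-9GR and 10 at least 2-fold higher, with a median of 1.41. The background in that pair was 21.0% of all genes at least 2-fold higher. LY96, 1 of the 10, was under 1 CPM in both libraries. The part of these neighbours in the level of RPL7 was not tested. RPL7 and these neighbours were chosen after their values were seen.

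Of the paralogs, RPS27L was high in 1 library. It had 276 CPM in PC-9GR and 34.4 in PC-9ER, against 17.99 in PC-9, and 29.2 in HCC827GR and 72.5 in HCC827ER, against 15.7 in HCC827. It was above the parent in every pair and was the highest member in PC-9GR (log2 ratio 3.93) and HCC827ER (2.20). Its core paralog RPS27 had 871 CPM in PC-9GR and 502 in PC-9ER, against 423 in PC-9, and 748 in HCC827GR and 2654 in HCC827ER, against 779 in HCC827. In counts, not per length, RPS27L came to 31.7% of RPS27 in PC-9GR and 6.84% in PC-9ER, against 4.25% in PC-9, and to 3.91% in HCC827GR and 2.73% in HCC827ER, against 2.02% in HCC827.

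RPS27 itself was the third highest member in HCC827ER, at a log2 ratio of 1.77, next to RPL34 at 1.74, a large-subunit protein. Other listed targets of p53, a list without RPS27L, were also higher in PC-9GR: 16 of 17 were above the parent and 11 were at least 2-fold higher, with a median of 1.33, where 21.0% of all genes were at least 2-fold higher. CDKN1A, the cell cycle inhibitor, had 215 CPM in PC-9GR and 25.5 in PC-9ER, against 49.3 in PC-9, and DDB2, a DNA damage sensor, had 99.6 and 21.7 CPM, against 14.6 CPM. In the other pairs 10 of 17 (PC-9ER), 6 (HCC827GR) and 7 (HCC827ER) were above the parent, and 1, 1 and 3 were at least 2-fold higher. The listed genes next to RPS27L on chromosome 15 were also higher in PC-9GR: 11 of the nearest 12 were above the parent and 8 at least 2-fold higher, with a median log2 ratio of 1.35, among them LACTB at 3.14, APH1B at 4.54, TPM1 at 2.28, ANXA2 at 3.70 and CA12 at 9.12. In HCC827ER, where RPS27L stood at 2.20, 7 of the 12 were above the parent and 3 at least 2-fold higher, with a median of 0.52. The part of either set in the level of RPS27L was not tested.

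RPL39L, which in mouse replaces RPL39 in the exit tunnel of ribosomes of male germ cells, went with the family of lines. It had 24.1 CPM in PC-9GR and 41.98 in PC-9ER, against 22.7 in PC-9, and 10.6 in HCC827GR and 13.8 in HCC827ER, against 18.03 in HCC827. Its counts came to 6.61% and 12.02% of those of RPL39 in PC-9GR and PC-9ER, against 5.91% in PC-9, and to 2.67% and 1.56% in HCC827GR and HCC827ER, against 2.77% in HCC827. RPL3L, the striated muscle paralog of RPL3, had 4 and 3 counts in PC-9GR and PC-9ER, against 0 in PC-9, and 5 and 2 in HCC827GR and HCC827ER, against 4 in HCC827. A count of 0 allows up to 3 counts, which is 0.178 CPM in PC-9, so RPL3L was at or near the detection limit in every line.

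**Figure D5:**
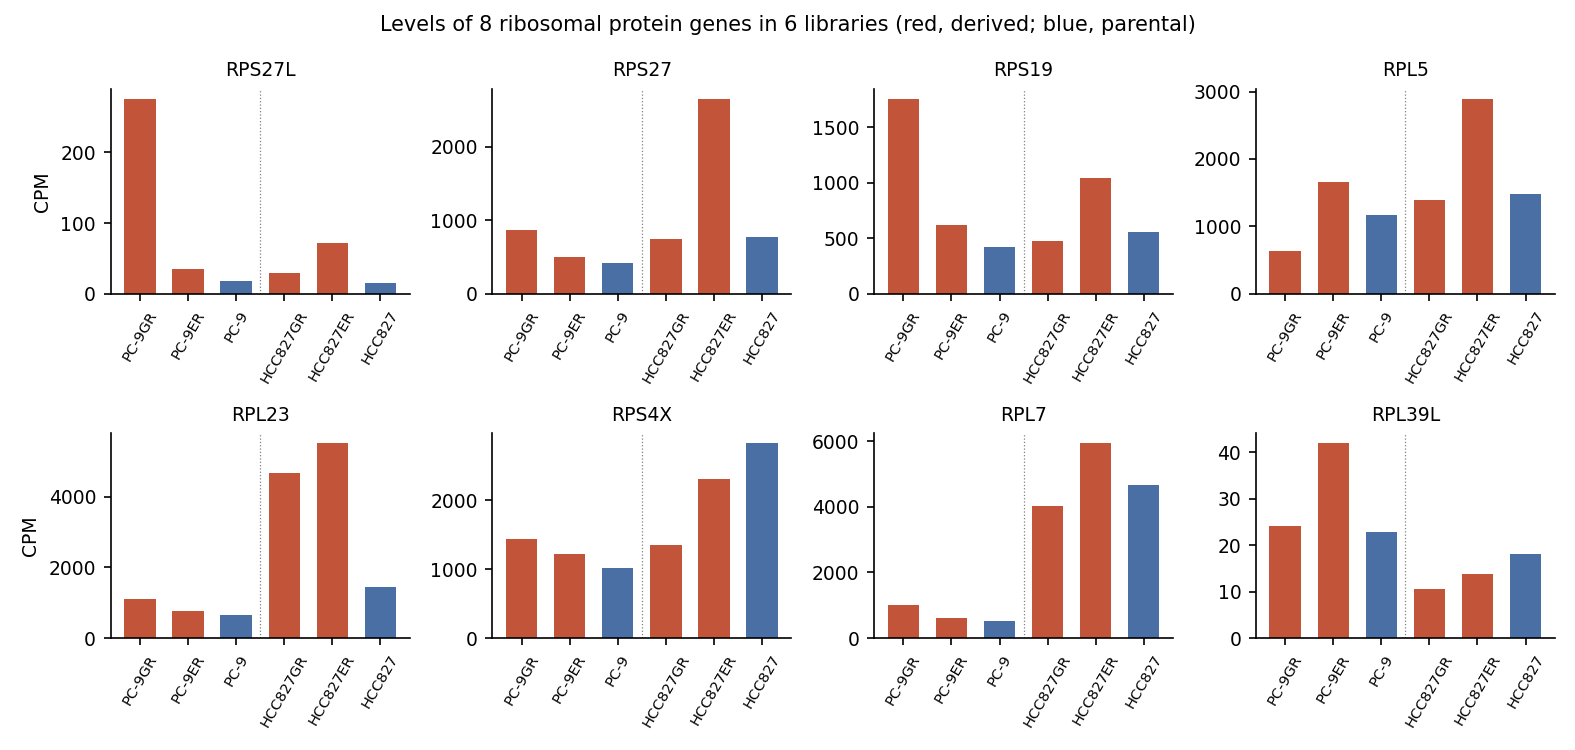
CPM (y axis, starting at 0 and scaled for each gene) of 8 ribosomal protein genes in 6 libraries (x axis), 1 library per line, with derived lines left of their parent. RPS27L reaches 276 CPM in PC-9GR, RPL23 reaches 4657 and 5520 CPM in HCC827GR and HCC827ER, and RPL7 is at 4013 CPM or more in the HCC827 lines and at 1016 CPM or less in the PC-9 lines.

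The tests set derived against parental lines over all genes. In edgeR's quasi-likelihood test with Benjamini-Hochberg adjustment at 0.05, none of the 79 members tested passed in any of 5 comparisons, and neither did any of the 13492 or 14232 genes tested (background 0.0% in each comparison). At an unadjusted p under 0.05 there were 342 genes for derived against parental lines, 132 for the PC-9 derivatives, 193 for the HCC827 derivatives and 117 for the difference between them, none of them a member. For ER against GR lines there were 931 of 13492 genes, among them 5 of the 79 members, a share not above that of all genes. DESeq2 called 34, 107, 43, 30 and 339 genes in the 5 comparisons, and limma-voom called 0. Only the last DESeq2 comparison, ER against GR, called a member (RPS12). That was 1 of 79 members, against 339 of 13492 genes, again a share not above that of all genes. Leaving out 1 library, edgeR called RPS27L alone of the members for the PC-9 derivatives without PC-9ER (1.27%, background 8.64%) and for ER against GR lines without HCC827GR (1.27%, background 10.3%). With 1 library per line, all 5 comparisons take their spread from differences between lines. For the PC-9 derivatives, the HCC827 derivatives and the difference between them, it is that between the GR and the ER line of a parent. For derived against parental lines, it also holds the difference between the parents in the change of their derivatives. For ER against GR lines, it is the disagreement between the PC-9 and the HCC827 lines, parents included.

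Fitted values of derived against parental lines were above 0 in 78 of 79 members, with a median log2 fold change of 0.56, against 0.04 over all genes. Here and in the comparisons below, counts of fitted values above 0 are not given over all genes, only medians. Without HCC827ER the median was 0.11, with 53 above and 26 below 0, and without the library labelled PC-9GR it was 0.58, with 78 above 0. By size only, the highest were RPS27L at 2.51 ± 1.05 (SE; 4 derived against 2 parental libraries, edgeR adjusted p = 0.999), RPL23 at 1.22 ± 0.55, RPL38 at 1.12 ± 0.54, RPS19 at 1.10 ± 0.69 and RPS27 at 1.05 ± 0.71. The lowest were RPS4X at -0.02 ± 0.49, RPL39 at 0.06 ± 0.50, RPL39L at 0.07 ± 0.48, RPS27A at 0.20 ± 0.50 and RPL24 at 0.24 ± 0.58. The adjusted p was 0.999 for each of them.

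For the PC-9 derivatives against PC-9, 69 of 79 members had fitted values above 0, with a median of 0.39, against 0.09 over all genes. RPS27L led at 3.15 ± 1.61, followed by RPS19 (1.54 ± 1.07), RPS16 (1.505 ± 0.93), RPL38 (1.29 ± 0.89) and RPLP1 (1.05 ± 1.06), and RPL24 (-0.26 ± 0.86), RPL39 (-0.09 ± 0.82), RPS12 (-0.08 ± 0.98) and RPL3 (-0.07 ± 0.88) were among the lowest. For the HCC827 derivatives against HCC827, 77 of 79 were above 0, with a median of 0.76, against 0.04. This rested on HCC827ER: without it 10 members were above and 69 below 0, with a median of -0.15, and without HCC827GR 78 were above 0, with a median of 1.33. RPL23 led at 2.01 ± 0.85 (unadjusted p = 0.0559 in the edgeR test), followed by RPS27L (1.95 ± 1.498), RPS27 (1.40 ± 1.11), RPL34 (1.37 ± 1.05) and RPL9 (1.34 ± 0.94), and RPS4X (-0.41 ± 0.79), RPL39L (-0.37 ± 0.76), RPS27A (0.07 ± 0.82), RPS26 (0.08 ± 0.71) and RPL36A (0.19 ± 0.84) were lowest. All adjusted p-values in both comparisons were 1.0.

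The difference between these changes, HCC827 derivatives minus PC-9 derivatives, was above 0 in 55 of 79 members, with a median of 0.33, against -0.06 over all genes. Without HCC827ER it was above 0 in 5 and below 0 in 74 members, with a median of -0.55, and without HCC827GR it was above 0 in 72, with a median of 0.92. Among the highest were RPL23 (1.47 ± 1.09), RPL34 (1.16 ± 1.39), RPS25 (1.15 ± 1.43) and RPL29 (1.13 ± 1.28). It was lowest in RPS27L (-1.20 ± 1.93), RPS16 (-0.95 ± 1.23), RPL39L (-0.93 ± 1.09), RPS19 (-0.84 ± 1.41) and RPS4X (-0.82 ± 1.14). Each standard error was of the size of its value, and no member passed (edgeR adjusted p = 0.9999 throughout).

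ER lines against GR lines had fitted values above 0 in 74 of 79 members, with a median of 0.75, against -0.01 over all genes. Without HCC827ER the median was 0.11, with 51 above 0, and without HCC827GR it was 0.18, with 53 above 0; without PC-9GR it was 1.33 and without PC-9ER 1.31, with all 79 above 0. The highest were RPS25 (1.59 ± 0.52), RPS12 (1.55 ± 0.47), RPL37 (1.48 ± 0.53), RPL5 (1.40 ± 0.49) and RPL35A (1.40 ± 0.48), which were the 5 members with an unadjusted p under 0.05 and had an edgeR adjusted p of 0.693. Such a p was had by 931 of all 13492 genes, a share not below that of the members. The lowest were RPS27L (-0.92 ± 1.30), RPS19 (-0.18 ± 0.89), RPS16 (-0.07 ± 0.74), RPL4 (-0.05 ± 0.72) and RPLP2 (-0.01 ± 0.57). Within a parent, all 79 members were higher in HCC827ER than in HCC827GR (median log2 difference 1.16), whereas 41 were higher and 38 lower in PC-9ER than in PC-9GR (0.05). The same counts over all genes are not given here, so these have no background. Over the parent, the median log2 ratio of all genes was -0.35 in HCC827ER and 0.06 in HCC827GR. It was 0.03 in PC-9ER and -0.02 in PC-9GR. Both ER libraries, and no other, came in a second deposited table, so a difference between the tables and between the kinds of line cannot be told apart.

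Of the components of the ribosome named above that the symbol rule misses, FAU and RACK1 were above the parent in HCC827ER in CPM, and RPL36AL was below it. Under TMM scaling none of them was below the parent in HCC827ER. FAU, whose product is cleaved to eS30, had 200 CPM in PC-9GR and 280 in PC-9ER, against 231 in PC-9, and 290 in HCC827GR and 602 in HCC827ER, against 319 in HCC827. RACK1, a scaffold on the small subunit, was also highest in HCC827ER, with a log2 ratio of 0.83. RPL36AL, a close copy of RPL36A, was at -0.31 in HCC827ER and 0.71 in PC-9GR. The 3 further paralogs RPL22L1, RPL7L1 and RPL26L1, had medians of 0.46 in HCC827ER and 0.17 in HCC827GR, 0.09 in PC-9ER and -0.45 in PC-9GR.

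The list of 20 elongation factors and other mRNAs known to carry a TOP motif went both ways in HCC827ER. In HCC827ER 13 of 20 were above the parent, with a median of 0.25, and 3 were at least 2-fold higher (TPT1 at 1.65, EIF3E at 1.17 and EEF1G at 1.09) and 3 at least 2-fold lower (IPO7 at -1.47, HNRNPA1 at -1.16 and PABPC1 at -1.13). Under TMM scaling the median of this list in HCC827ER was 0.60, with 14 above the parent and 6 below it. Its other medians in CPM were -0.14 (PC-9GR), 0.21 (PC-9ER) and 0.10 (HCC827GR). Members with a TOP start had a median of 0.96 in HCC827ER, against 0.98 for the 17 matched members without one, and the corresponding medians were -0.11 and -0.11 in HCC827GR, 0.38 and 0.32 in PC-9ER, and 0.41 and 0.26 in PC-9GR.

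Genes for building ribosomes did not go with the ribosomal proteins in HCC827ER. Of 41 assembly factors, 36 were below the parent there, with a median of -0.74 and 17 (background 28.3%) at least 2-fold lower, among them NCL (-1.97), UTP20 (-3.24), NOP58 (-2.18) and DKC1 (-1.99). Of 14 RNA polymerase I genes, 11 were below, with a median of -0.80. The median transcript length was 2303 bases for the assembly factors and 2105 bases for the polymerase genes, in the range where other genes had a median of -0.32 in HCC827ER. Under TMM scaling the medians in HCC827ER were -0.39 and -0.44, with 29 assembly factors and 10 polymerase genes below the parent. In the other pairs the assembly factors had medians of -0.12 (PC-9GR), 0.07 (PC-9ER) and 0.01 (HCC827GR), and the polymerase genes -0.27, -0.05 and 0.04.

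The 16 genes of mTORC1 signalling, LARP1 and MYC had medians of -0.65 in PC-9GR, -0.13 in PC-9ER and -0.06 in HCC827ER, and of 0.24 in HCC827GR. LARP1 had 232 CPM in PC-9GR and 301 in PC-9ER, against 427 in PC-9, and 293 in HCC827GR and 105 in HCC827ER, against 222 in HCC827. MYC, an activator of ribosomal protein genes, had 128 CPM in PC-9GR and 202 in PC-9ER, against 270 in PC-9, and 646 in HCC827GR and 425 in HCC827ER, against 398 in HCC827. LARP1 was below the parent in the 3 lines with a larger ribosomal protein share and above it in HCC827GR, and MYC was below it in both PC-9 derivatives. Under TMM scaling the median of the 16 genes in HCC827ER was 0.29. In CPM, MTOR, TSC1 and EIF4EBP2 of this list had the same signs as LARP1. So did the medians of other genes over 5000 bases, at -0.37 (PC-9GR), -0.42 (PC-9ER), 0.18 (HCC827GR) and -1.11 (HCC827ER). The part of LARP1 or of transcript length here was not tested.

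The 78 mitochondrial ribosomal protein genes, which serve a separate ribosome, had medians of 0.36 in PC-9GR and 0.44 in PC-9ER, where 53 and 73 of them were above the parent, and of 0.07 in HCC827GR and 0.32 in HCC827ER, where 45 and 59 were. The 82 nuclear-coded subunits of the respiratory chain, whose mRNAs are as short as those of the ribosomal proteins (median 750 bases), had 0.45, 0.53, -0.03 and 0.67. In both PC-9 derivatives these lists lay near or above the cytosolic ribosomal proteins (0.38 and 0.37), and in HCC827ER below them (0.97). Under TMM scaling the medians in HCC827ER were 0.67 for the mitochondrial ribosomal proteins, 1.03 for the respiratory chain subunits and 1.32 for the cytosolic ribosomal proteins.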

How the data were processed

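Total RNA from 6 cell lines, 1 library each, was made into libraries with the TruSeq Stranded Ribo-Zero kit, which removes ribosomal RNA, per the labels' protocols. The submitters' processing notes name HISAT2 2.0.4, Cuffdiff and GRCh38.p13. The values are the authors' deposited expected counts per gene, of which 13.4% to 14.6% per library were not whole; they were rounded here, and the sources used here do not name the counting program. They came as 2 tables, 1 with PC-9GR, PC-9, HCC827GR and HCC827 (16843 genes used) and 1 with PC-9ER and HCC827ER (16304 genes). The 15998 shared genes were kept, leaving 845 and 306 aside, and 13 further rows of sex-linked markers were not used here. The 3 counts that a count of 0 allows come to 0.168 to 0.206 CPM.

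Pairs were compared as log2 ratios of CPM of the library total with a prior count of 2. Tests over all genes used edgeR 4.0.16 (R 4.3.3) with TMM factors, its default filter on low counts, robust quasi-likelihood fits (residual degrees of freedom: 3 for derived against parental lines, otherwise 2) and Benjamini-Hochberg adjustment, and were tested on simulated data. The comparison over all derived lines and that of ER with GR lines hold parent of origin as a block. DESeq2 1.42.0, limma 3.58.1, other scalings, no filter and leaving out each library were tried. Transcript lengths are medians over protein-coding transcripts of GENCODE 29, and gene order comes from RefSeq. Intervals and floors cover counting error only. The p-values measure a spread between lines, which differs by comparison as given above.

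Named genes are a set chosen by role, the 3 highest and 3 lowest members of each pair with at least 10 CPM, and the 5 highest and 5 lowest fitted members of each comparison; no member went against the majority in all 4 pairs. Some genes that this rule takes are not reported here, and counts and medians over the members include them. Neighbours and list genes named outside this rule were chosen after their values were seen. The members, the gene lists and the tests were chosen with earlier results of these data known. The 2 lists of small nucleolar RNA hosts and of nuclear-retained RNAs had no member among the shared genes and were not analysed here.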

Additional observations from a re-analysis of the deposited data

Results flagged for a closer look

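RPL39L and RPS4X went in opposite directions in the derivatives of the 2 parents, and neither passed the test of that difference. RPL39L stood above PC-9 in both PC-9 derivatives, with a mean log2 ratio of 0.48, and below HCC827 in both HCC827 derivatives, with a mean of -0.57, a difference of -1.06 between the means. RPS4X had means of 0.38 in the PC-9 derivatives and -0.68 in the HCC827 derivatives, a difference of -1.07. The fitted differences, HCC827 derivatives minus PC-9 derivatives, were -0.93 ± 1.09 for RPL39L and -0.82 ± 1.14 for RPS4X (edgeR adjusted p = 0.9999 for both). Under TMM scaling RPS4X stood at 0.06 in HCC827ER and -1.12 in HCC827GR, so its direction then differed between the 2 HCC827 derivatives, while RPL39L stayed below the parent in both, at -0.04 and -0.80. Each value rests on 1 library per line.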

How the results depend on the processing

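With FAU, RPL36AL and RACK1 added, a choice made after seeing the data, the shares were 7.81% in PC-9GR, 7.59% in PC-9ER and 6.002% in PC-9, and 7.82% in HCC827GR, 16.4% in HCC827ER and 8.67% in HCC827. The members' median log2 ratio kept its sign under every scaling: with TMM and with DESeq2 size factors it was 0.43 and 0.42 in PC-9GR, -0.16 and -0.16 in HCC827GR, and 1.32 and 1.34 in HCC827ER, where counts outside the members as the denominator gave 1.10. Members at least 2-fold higher numbered 65 in HCC827ER under both scalings, and 2 in PC-9ER once RPL3L was included. Leaving out 1 derived line, an alternative chosen after seeing the data, gave 10 (without HCC827ER, 12.7% of members against 17.9% of all genes) to 53 (without HCC827GR, 67.1% against 15.0%) members above the parent in every remaining pair. A minimum on the mean of the 6 libraries, also chosen after seeing the data, moved the median of other short abundant genes to 0.29 in PC-9GR and 0.43 in HCC827ER. Where leaving out a library left only 1 derived line on a side, calls are not given. In the other settings 1 member was called for ER against GR in DESeq2 (RPS12, 1 of 79 members against 339 of 13492 genes). All the rest of these settings gave 0 called members in each of the 5 comparisons.

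Fitted values near 0 changed sign, and the cause was not tested. For derived against parental lines, RPL39 was at -0.068 with library totals, -0.013 with totals outside the members and -0.034 in limma-voom, and RPL39L at -0.046 with library totals. For the HCC827 derivatives, RPS27A was at -0.17, -0.087 and -0.11 in these 3 settings, RPS26 at -0.11 and -0.045 in the first 2, and RPL36A at -0.0497 with library totals. For ER against GR, limma-voom gave 0.012 for RPS19, 0.086 for RPS16 and 0.0054 for RPLP2, and DESeq2 size factors and the DESeq2 test gave 0.0028 and 0.0028 for RPLP2.

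Leaving out 1 library at a time turned the sign of these fitted values, given as lowest to highest. For derived against parental lines the ranges were -0.41 to 0.41 for RPS4X, -0.39 to 0.28 for RPL39, -0.37 to 0.55 for RPL39L, -0.20 to 0.46 for RPS27A and -0.26 to 0.82 for RPL24. For the PC-9 derivatives they were -0.69 to 0.067 for RPL24, -0.77 to 0.38 for RPS12 and -0.17 to 0.024 for RPL3, each highest without PC-9GR. For the HCC827 derivatives they were -0.10 to 2.13 for RPS27, -0.14 to 2.10 for RPL34, -1.11 to 0.061 for RPS4X, -0.85 to 0.63 for RPS27A, -0.37 to 0.43 for RPS26 and -0.73 to 0.75 for RPL36A, each lowest without HCC827ER. For the difference between parents they were -0.33 to 1.89 for RPL34, -0.10 to 1.85 for RPS25, -0.0195 to 1.77 for RPL29, -2.27 to 0.9964 for RPS27L and -1.78 to 0.12 for RPS19. For ER against GR they were -2.59 to 1.36 for RPS27L, -1.37 to 1.37 for RPS19, -1.04 to 1.20 for RPS16, -0.94 to 0.99 for RPL4 and -0.69 to 0.77 for RPLP2, each highest without PC-9GR. Parent of origin was held as a block where stated, and no further pairing was fitted, since no line has a second library.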
